A study of Mus musculus with 14 samples.

Results

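A set of 10 genes that are widely used to describe the state of macrophages in tumours was followed across 14 bulk tumour libraries: Apoe, Trem2, C1qa, C1qb, C1qc, Mrc1, Cd163, Spp1, Lyz2 and Arg1. They were chosen by name and make up 10 of the 51789 genes in the count table, and all 10 passed the filter on low counts that left 17294 genes for testing. The tumours came from mice in a study of inhibitors of ACSS2, the enzyme that makes acetyl-CoA from acetate, in triple negative breast cancer. The libraries formed 4 groups: tumours of C57BI/6 mice given ACSS2i (n = 4), of C57BI/6 mice given vehicle (n = 4), of animals labelled NGS mouse given ACSS2i (n = 3) and of NGS animals given vehicle (n = 3). The strains are called C57BI6 and NGS here, as in the sample names. The tumour cells, any Bmal1 status, the dose, the length of treatment and the age of the animals are not given in the sources used here, nor is it stated that replicates are separate animals, so p-values measure the spread between these libraries, which may be technical.

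Macrophages that enter a tumour are shaped by the tissue, and their state is often read from a few transcripts. Lipid-handling macrophages carry Apoe and Trem2, resident-type and perivascular ones carry the scavenger receptors Mrc1 and Cd163, and many tissue macrophages make the C1q chains that start the classical complement pathway. Several of these genes have other sources as well: tumour cells and fibroblasts can make Spp1 and Apoe, and neutrophils make Lyz2. In bulk RNA, fewer cells of a type and less RNA per cell cannot be told apart.

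Each library was made from bulk tumour with a kit that reads the 3′ end of polyadenylated RNA. Totals were 17645504 to 20344809 counts in C57BI6 libraries and 2846161 to 4701101 in NGS libraries, so depth and strain cannot be told apart. In a principal component analysis the first component (60.5% of the variance) separated the strains, and on the second NGS ACSS2i library 2 lay at -114.8 while the other 13 lay between -37.7 and 55.6. The libraries held macrophage RNA: all 14 genes of a macrophage identity list, among them Adgre1, Csf1r and Cd68, were detected in every group. The list summed to 1431 to 1797 CPM (counts per library total, scaled so that each library sums to the same value) in C57BI6 ACSS2i and 1323 to 1596 in C57BI6 vehicle. It summed to 1813 to 2327 CPM in NGS ACSS2i and 1235 to 1724 in NGS vehicle. Of 12 lymphocyte markers, none was at 0 throughout either C57BI6 group, while 8 were at 0 in all NGS ACSS2i libraries and 10 in all NGS vehicle libraries.

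**Figure D1:**
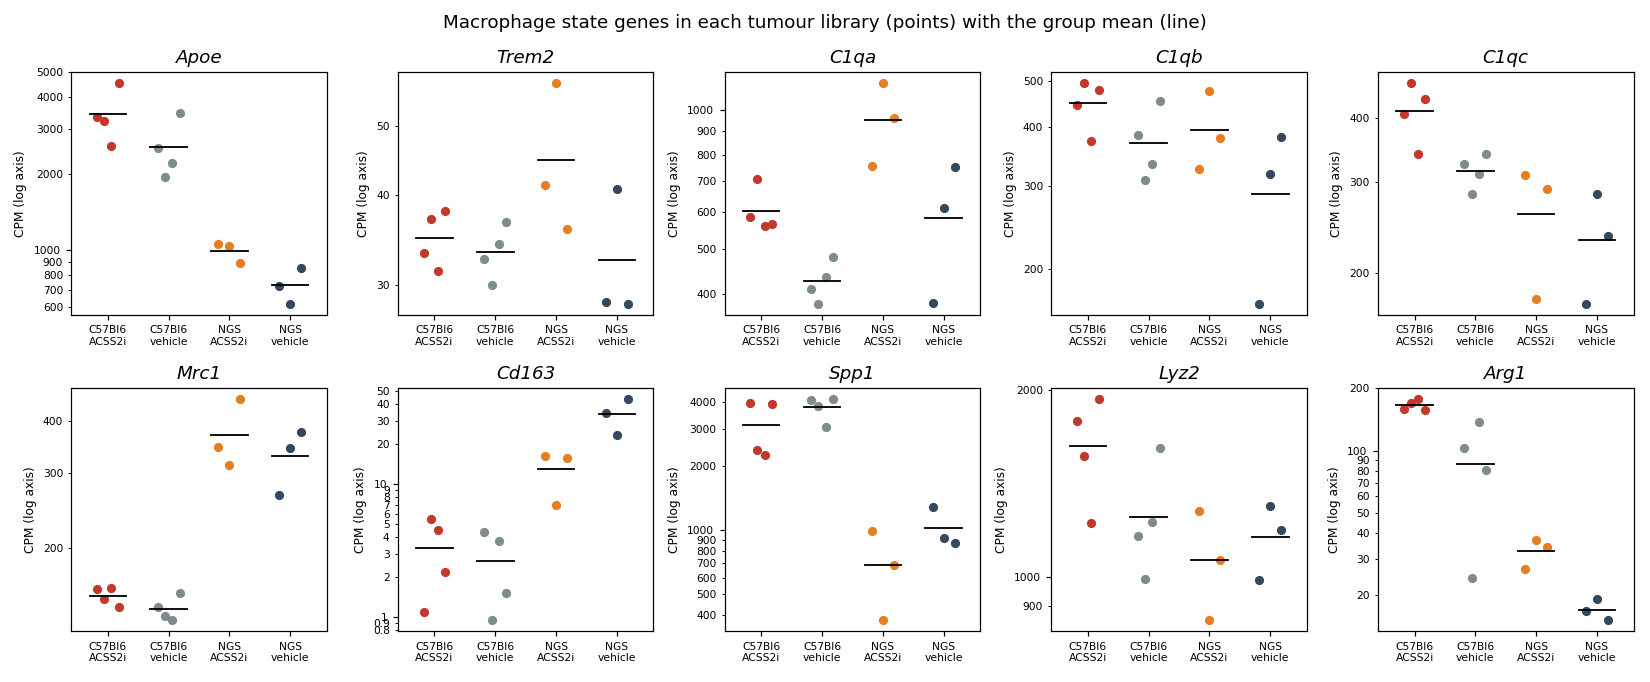
CPM of the 10 genes in each of the 14 libraries (points) and the mean of each group (line), on log axes that differ between panels. Apoe, Spp1 and Arg1 are high in C57BI6 tumours and Mrc1 and Cd163 in NGS tumours, while the Trem2 groups overlap. C57BI6 vehicle library 2 is an exception for Arg1, below the NGS ACSS2i libraries.

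The strain of the host went with most of these genes, in both directions. In ACSS2i tumours, 5 of the 10 were higher in C57BI6 than in NGS (Apoe, Spp1, Arg1, C1qc and Lyz2) and 3 were lower (Mrc1, Cd163 and C1qa), by the edgeR quasi-likelihood test at a Benjamini-Hochberg adjusted p under 0.05. Of all genes tested, 39.9% passed in that comparison, 22.9% higher and 17% lower. In vehicle tumours, 4 were higher in C57BI6 (Apoe, Spp1, Arg1 and C1qc) and 2 were lower (Mrc1 and Cd163), where 32.3% of all genes passed, 18.7% higher and 13.6% lower. The counts of 8 and 6 are to be read against these high shares. The median log2 fold change of the 10, C57BI6 over NGS, was 0.53 in ACSS2i tumours and 0.38 in vehicle tumours, against 0.06 and 0.01 over all genes. CPM ranges of the strains did not overlap for 7 of the 10 in ACSS2i tumours and 5 in vehicle tumours, against 44.9% and 41.5% of all genes.

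**Figure D2:**
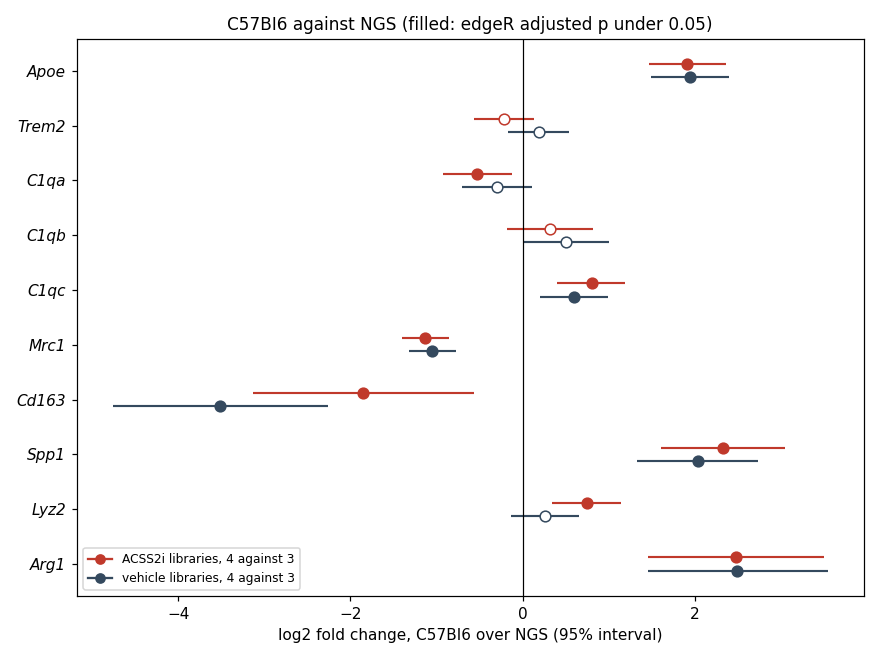
Log2 fold change of C57BI6 over NGS (horizontal axis) for each gene, in ACSS2i tumours and in vehicle tumours, with 95% intervals; filled points passed the test. Apoe, Spp1 and Arg1 lie near 2 or above in both treatments, Mrc1 near -1, and Cd163 at -1.85 in ACSS2i tumours and -3.51 in vehicle tumours.

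Apoe encodes apolipoprotein E, the lipid carrier that macrophages use to export cholesterol (chr7:19696109-19699188, minus strand, mm10). It was at 3341, 3216, 2563 and 4541 CPM in C57BI6 ACSS2i tumours and 1056, 1041 and 890.2 CPM in NGS ACSS2i tumours. Vehicle tumours held Apoe at 2521, 1940.1, 2208 and 3472 CPM in C57BI6 and 726, 618 and 856 CPM in NGS. Every C57BI6 library was above every NGS library. The log2 fold change of C57BI6 over NGS was 1.91 ± 0.21 (SE) in ACSS2i tumours, with an edgeR adjusted p of 7.32e-06, and 1.94 ± 0.21 in vehicle tumours, with an edgeR adjusted p of 6.36e-06. The genes Apoc4 and Apoc2 of related lipoproteins showed larger differences: Apoc4 averaged 52.5 ± 4.77 CPM in C57BI6 vehicle and 2.49 ± 0.318 in NGS vehicle (SD, n = 4 and 3), and Apoc2 averaged 7.52 ± 1.45 and 0.814 ± 0.414 CPM in the same groups. They belong to a list of 15 apolipoprotein E partners, of which 5 were higher and 3 lower in C57BI6 vehicle tumours, with a median log2 fold change of 0.09.

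Trem2, the surface receptor that senses lipids and apolipoproteins (chr17:48346401-48354147, plus strand), did not pass between strains in either treatment. It was at 33.3, 37.1, 31.4 and 38.0 CPM in C57BI6 ACSS2i tumours and 41.3, 57.3 and 35.9 CPM in NGS ACSS2i tumours. Under vehicle, Trem2 was at 32.6, 30.0, 34.3 and 36.7 CPM in C57BI6 and 28.5, 40.8 and 28.3 CPM in NGS, and neighbouring groups overlapped throughout. For C57BI6 over NGS the log2 fold change was -0.22 (95% interval -0.57 to 0.13) in ACSS2i tumours and 0.19 (-0.17 to 0.54) in vehicle tumours. Among 12 genes of Trem2 signalling, 4 were higher and 2 lower in C57BI6 in each treatment, and 1 of the lower ones was Syk, the kinase that acts below the adaptor of Trem2, with a log2 fold change of -0.61 ± 0.11 in vehicle tumours (edgeR adjusted p = 0.000633). Of 16 further genes of lipid-associated macrophages, 6 were higher and 5 lower in C57BI6 ACSS2i tumours, and 5 were higher and 1 lower in C57BI6 vehicle tumours.

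The scavenger receptors ran the other way. Mrc1, the mannose receptor CD206 (chr2:14229392-14332057, plus strand), was at 159.8, 151, 161 and 145 CPM in C57BI6 ACSS2i tumours and 346, 315 and 449.8 CPM in NGS ACSS2i tumours. In the vehicle groups Mrc1 was at 145, 138, 135 and 156 CPM in C57BI6 and 267, 345 and 376 CPM in NGS. No C57BI6 library reached the lowest NGS library, and the C57BI6 libraries were close together, with a coefficient of variation of 4.95% in ACSS2i and 6.56% in vehicle tumours. Its log2 fold change, C57BI6 over NGS, was -1.13 ± 0.13 in ACSS2i tumours (edgeR adjusted p = 3.29e-06) and -1.05 ± 0.13 in vehicle tumours (edgeR adjusted p = 7.93e-06).

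Cd163, the receptor that clears haemoglobin bound to haptoglobin (chr6:124304656-124330527, plus strand), was low in every C57BI6 library, at 18 to 112 counts. It was at 1.09, 5.51, 4.54 and 2.17 CPM in C57BI6 ACSS2i tumours and 16.3, 7.03 and 15.6 CPM in NGS ACSS2i tumours. Vehicle tumours held Cd163 at 4.38, 0.954, 3.75 and 1.53 CPM in C57BI6 and 34.2, 23.5 and 43.5 CPM in NGS. The strains did not overlap in either treatment. For Cd163 the log2 fold change was -1.85 ± 0.59 in ACSS2i tumours (edgeR adjusted p = 0.0257) and -3.51 ± 0.57 in vehicle tumours (edgeR adjusted p = 0.000577). The ACSS2i value rests on few counts: without NGS ACSS2i library 1, NGS ACSS2i library 3 or C57BI6 ACSS2i library 4 the Cd163 edgeR adjusted p was 0.0863, 0.087 and 0.0647, and with no filter on low counts it was 0.0646.

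The promoters of these 2 receptors, which were both lower in C57BI6 tumours, are shown as the 250 bases before the RefSeq start (GRCm38.p6), 5′ to 3′ on the gene's strand. Capitals mark GAGGAA, the core read by the myeloid factor PU.1, on either strand (TTCCTC on the other strand). Mrc1 is at chr2:14229164-14229413 and Cd163 at chr6:124304401-124304650, both on the plus strand.
Mrc1: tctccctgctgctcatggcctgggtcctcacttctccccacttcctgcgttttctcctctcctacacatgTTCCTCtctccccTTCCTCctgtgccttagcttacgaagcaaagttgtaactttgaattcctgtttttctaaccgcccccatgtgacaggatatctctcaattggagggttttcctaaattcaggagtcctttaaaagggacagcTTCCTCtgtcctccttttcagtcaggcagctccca
Cd163: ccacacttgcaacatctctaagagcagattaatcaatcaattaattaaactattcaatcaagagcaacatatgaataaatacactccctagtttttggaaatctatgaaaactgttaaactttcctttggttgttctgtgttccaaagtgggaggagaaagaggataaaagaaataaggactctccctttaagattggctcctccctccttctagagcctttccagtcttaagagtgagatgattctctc
The Mrc1 window holds the core at 3 places, the nearest 35 bases before the RefSeq start, and the Cd163 window holds no match to it. The end of the Mrc1 window lies past the GENCODE start at 14229392. The letters are in the same window of 23.3% of 32851 RefSeq promoters, and in 6 of the 8 members with a promoter in that table, all but Lyz2 and Cd163. A match is a description of the sequence.

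Other genes of perivascular and resident-type macrophages were also lower in C57BI6 tumours. Of 16 such genes, 7 were lower and 1 higher in ACSS2i tumours, and 9 were lower and 1 higher in vehicle tumours, with median log2 fold changes of -0.73 and -0.93. Vsig4, a complement receptor of resident macrophages, averaged 0.217 ± 0.105 CPM in C57BI6 vehicle and 7.87 ± 2.09 in NGS vehicle (SD, n = 4 and 3). Folr2, a folate receptor of the same cells, averaged 9.71 ± 3.31 and 38.5 ± 8.98 CPM in those groups. Stab1, the scavenger receptor stabilin 1, had a log2 fold change of -0.83 ± 0.16 in ACSS2i tumours (edgeR adjusted p = 0.000605).

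Spp1 encodes osteopontin, a secreted ligand of integrins and CD44 (chr5:104435118-104441050, plus strand). It was at 3968, 2389, 2260.3 and 3944 CPM in C57BI6 ACSS2i tumours and 996, 379 and 686 CPM in NGS ACSS2i tumours. Under vehicle, Spp1 was at 4119, 3854, 3062 and 4136 CPM in C57BI6 and 1285, 924 and 874 CPM in NGS. Every C57BI6 library was above every NGS library, with a log2 fold change of 2.32 ± 0.33 in ACSS2i tumours (edgeR adjusted p = 0.000173) and 2.03 ± 0.32 in vehicle tumours (edgeR adjusted p = 0.000502). A gene model on the same strand, Gm42793, overlaps Spp1 and held 135 counts over all libraries, against 1080 to 80085 counts of Spp1 per library. Among 11 measured receptors and partners of osteopontin, 3 were higher and 2 lower in C57BI6 ACSS2i tumours. The lower ones include Itgb3, an integrin subunit of osteopontin receptors, with a log2 fold change of -0.73 ± 0.19 (edgeR adjusted p = 0.00509). In C57BI6 vehicle tumours 2 were higher: the matrix protease gene Mmp3, at 2881 ± 350.5 CPM in C57BI6 and 255 ± 65.9 in NGS, and the fibronectin gene Fn1, at 2941 ± 235 and 2444 ± 114 CPM (SD, n = 4 and 3).

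Arg1 encodes arginase 1, which splits arginine and is made by macrophages under type 2 signals and in tumours (chr10:24915221-24927484, minus strand). It was at 158, 169, 177 and 157 CPM in C57BI6 ACSS2i tumours and 26.7, 36.9 and 34.2 CPM in NGS ACSS2i tumours. In the vehicle groups Arg1 was at 103, 24.3, 137 and 80.7 CPM in C57BI6 and 16.8, 19.1 and 15.2 CPM in NGS. C57BI6 vehicle library 2, at 24.3 CPM, was far below the other 3 of its group. It was above the NGS vehicle libraries but below every NGS ACSS2i library. Between strains the log2 fold change was 2.47 ± 0.46 in ACSS2i tumours (edgeR adjusted p = 0.00156) and 2.49 ± 0.47 in vehicle tumours (edgeR adjusted p = 0.00207). With limma voom the Arg1 difference in vehicle tumours was 2.17 with an adjusted p of 0.0832. Of 13 measured genes of arginine metabolism, 6 were higher and 2 lower in C57BI6 ACSS2i tumours, and 4 were higher and 1 lower in C57BI6 vehicle tumours. They included Slc7a2, an importer of arginine, at 359 ± 64.5 CPM in C57BI6 vehicle and 152 ± 19.8 in NGS vehicle, and Nos2, the inducible nitric oxide synthase that uses the same substrate, at 21.1 ± 3.54 and 4.57 ± 1.75 CPM (SD, n = 4 and 3).

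Lyz2, the lysozyme of macrophages, monocytes and neutrophils (chr10:117277331-117282321, minus strand), overlapped between all neighbouring groups. It was at 1784, 1566, 1224 and 1936 CPM in C57BI6 ACSS2i tumours and 1279, 853 and 1066 CPM in NGS ACSS2i tumours. Vehicle tumours held Lyz2 at 1167, 994, 1228 and 1615 CPM in C57BI6 and 989, 1301 and 1193 CPM in NGS. The log2 fold change passed in ACSS2i tumours, at 0.74 ± 0.19 (edgeR adjusted p = 0.00595), and was 0.26 (95% interval -0.14 to 0.65) in vehicle tumours. Lyz1, a near copy of Lyz2 whose reads the counting could mix with it, held 1 to 71 counts per library.

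Genes of inflammatory activation were on the same side as Spp1 and Arg1. Of 16 measured, 10 were higher in C57BI6 in each treatment and the other 6 did not pass, with a median log2 fold change of 1.72 in ACSS2i tumours and 2.2 in vehicle tumours. Cxcl10, a chemokine induced by interferon, averaged 56.7 ± 12.2 CPM in C57BI6 ACSS2i and 29.3 ± 3.44 in NGS ACSS2i (SD, n = 4 and 3). The summed level of the inflammatory genes was 341 to 517 CPM in C57BI6 ACSS2i tumours and 118 to 136 in NGS ACSS2i tumours, and 337 to 412 CPM in C57BI6 vehicle tumours and 84.9 to 301 in NGS vehicle tumours. Alternative activation genes were on that side too. Of 15 measured, 6 were higher and 0 lower in C57BI6 ACSS2i tumours, and 3 were higher and 1 lower in C57BI6 vehicle tumours. Their median log2 fold changes were 0.8 and 0.64. They summed to 1109.8 to 1191 CPM in C57BI6 ACSS2i and 715 to 798 in NGS ACSS2i. Under vehicle the sums were 855 to 1161 CPM in C57BI6 and 606 to 698 in NGS.

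**Figure D3:**
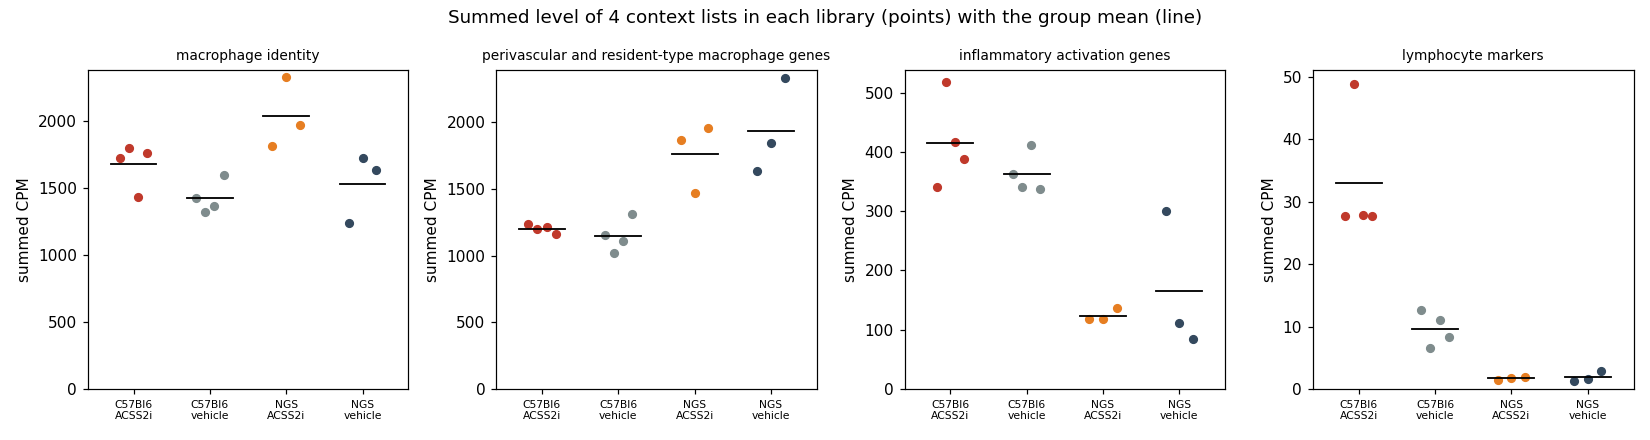
Summed CPM of 4 lists of genes in each library (points) with the group mean (line), on axes from 0. Macrophage identity sums overlap between the strains in vehicle tumours. In ACSS2i tumours they are narrowly apart in CPM, with 1797 in the nearest C57BI6 library and 1813 in the nearest NGS library. Perivascular and resident-type genes are higher in NGS, and inflammatory genes and lymphocyte markers are higher in C57BI6.

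The strain differences came with differences in other markers. Of the 14 macrophage identity genes, 2 were higher and 4 lower in C57BI6 ACSS2i tumours. Of their log2 fold changes, 7 were positive, with a median of -0.01. Their summed CPM was lower in every C57BI6 ACSS2i library than in every NGS ACSS2i library, but narrowly, with 1797 against 1813 in the nearest. Those libraries had TMM factors of 0.991 and 1.073, which reverse their order. In C57BI6 vehicle tumours 2 of the identity genes were higher and 2 lower, and the summed level overlapped with NGS vehicle. Lymphocyte markers summed to 27.7 to 48.8 CPM in C57BI6 ACSS2i and 1.43 to 1.98 in NGS ACSS2i, and to 6.62 to 12.7 CPM in C57BI6 vehicle and 1.28 to 2.85 in NGS vehicle. Of 10 fibroblast markers, 1 was higher and 5 lower in C57BI6 ACSS2i tumours, and 1 was higher and 7 lower in C57BI6 vehicle tumours. Their sums overlapped between strains in ACSS2i tumours, at 6242 to 7648 CPM in C57BI6 and 7296 to 7942 in NGS, and not in vehicle tumours, at 5815 to 7128 CPM in C57BI6 and 8915 to 9847 in NGS. Adipocyte markers summed to 117 to 471 CPM in C57BI6 ACSS2i and 457 to 1244 in NGS ACSS2i, and to 15.8 to 212 CPM in C57BI6 vehicle and 248 to 2037 in NGS vehicle. Skeletal muscle markers had a median log2 fold change, C57BI6 over NGS, of 1.9 in ACSS2i tumours and -3.8 in vehicle tumours, and the calls were 2 of 10, both lower in C57BI6 vehicle tumours. They summed to 5.12 to 2995 CPM in C57BI6 ACSS2i and 15.5 to 732 in NGS ACSS2i, and to 3.29 to 1012 CPM in C57BI6 vehicle and 333 to 7024 in NGS vehicle. Neutrophil markers, of which 4 of 8 measured were higher in C57BI6 in each treatment, summed to 122 to 173 CPM in C57BI6 ACSS2i and 82.3 to 188 in NGS ACSS2i, and to 139 to 179 CPM in C57BI6 vehicle and 49.8 to 247 in NGS vehicle. The part of these cells in the members' differences was not tested.

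The 3 chains of C1q, the recognition unit of the classical complement pathway, are encoded side by side on chromosome 4, all on the minus strand: C1qb at chr4:136880129-136886187, C1qc at chr4:136889804-136893065 and C1qa at chr4:136895917-136898803. The protein needs all 3 chains. In ACSS2i tumours C1qc was higher in C57BI6, with a log2 fold change of 0.8 ± 0.19 (edgeR adjusted p = 0.00336), C1qa was lower, at -0.53 ± 0.19 (edgeR adjusted p = 0.0388), and C1qb did not pass, at 0.32 (95% interval -0.18 to 0.81). In vehicle tumours the values were 0.59 ± 0.18 for C1qc (edgeR adjusted p = 0.0225), -0.3 (95% interval -0.71 to 0.11) for C1qa and 0.5 (0 to 1.0) for C1qb.

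The 250 bases before the RefSeq starts of C1qb (chr4:136886201-136886450) and C1qc (chr4:136892915-136893164), the chains whose counts stood apart from those of C1qa, are shown on the minus strand of GRCm38.p6, 5′ to 3′. Capitals mark GAGGAA on either strand (TTCCTC on the other) and, in C1qb, TGCTGA, a core of the MAF recognition element, which is in 16.1% of RefSeq promoters on either strand.
C1qb: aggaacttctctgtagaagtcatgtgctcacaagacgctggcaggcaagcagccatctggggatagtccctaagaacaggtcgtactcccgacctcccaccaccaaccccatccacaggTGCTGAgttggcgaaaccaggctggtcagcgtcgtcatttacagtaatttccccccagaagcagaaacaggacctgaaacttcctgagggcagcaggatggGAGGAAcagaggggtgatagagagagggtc
C1qc: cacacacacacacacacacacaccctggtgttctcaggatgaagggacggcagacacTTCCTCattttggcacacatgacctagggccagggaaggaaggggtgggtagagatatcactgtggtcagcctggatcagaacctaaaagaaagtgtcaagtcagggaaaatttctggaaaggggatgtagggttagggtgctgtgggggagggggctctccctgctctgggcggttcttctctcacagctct
Both windows hold the PU.1 core, 30 bases before the RefSeq start in C1qb and 193 bases before it in C1qc, and C1qb also holds the MAF core. The C1qc window overlaps the GENCODE gene, whose end at 136893065 is its start on the minus strand. The distance in C1qc therefore holds for the RefSeq start only.

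C1qa was at 585, 707, 559 and 566 CPM in C57BI6 ACSS2i tumours and 754, 1143 and 959 CPM in NGS ACSS2i tumours. Under vehicle, C1qa was at 409, 380.4, 435 and 481 CPM in C57BI6 and 381, 614 and 750.4 CPM in NGS. In CPM on library totals the strains did not overlap in ACSS2i tumours and overlapped in vehicle tumours. The nearest ACSS2i libraries, at 707 and 754 CPM, had TMM factors of 0.991 (C57BI6) and 1.073 (NGS), which reverse their order. The C1qa call between strains was lost when any of 8 of the 14 libraries was left out, with an edgeR adjusted p of 0.216 without NGS ACSS2i library 2, and with no filter on low counts (0.11). The C1qa difference in vehicle tumours, -0.53 without NGS vehicle library 1, then passed (edgeR adjusted p = 0.017).

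C1qb was at 445, 495, 374 and 479 CPM in C57BI6 ACSS2i tumours and 326, 476 and 378 CPM in NGS ACSS2i tumours. In the vehicle groups C1qb was at 384, 308, 333 and 453 CPM in C57BI6 and 169, 317 and 380.3 CPM in NGS. All neighbouring groups overlapped for C1qb, with NGS vehicle library 1 lowest. Without NGS vehicle library 3 the C1qb difference in vehicle tumours passed, at 0.77 (edgeR adjusted p = 0.0336).

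C1qc was at 407, 468, 340.5 and 435 CPM in C57BI6 ACSS2i tumours and 309.7, 178 and 291 CPM in NGS ACSS2i tumours. Vehicle tumours held C1qc at 325, 284, 310.5 and 341 CPM in C57BI6 and 174, 285 and 236 CPM in NGS. The strains did not overlap in ACSS2i tumours, and met at 284 and 285 CPM in vehicle tumours. In vehicle tumours the C1qc edgeR adjusted p was 0.0969, 0.056 and 0.0523 without NGS vehicle library 1, NGS vehicle library 3 or C57BI6 vehicle library 4, and 0.0721 with scaling by library totals.

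Ratios of the chains within a library do not depend on its scaling. They were added after the strain differences of the chains had been seen in these libraries, so they are given as a description, with no test. The ratio of C1qb to C1qa counts was 0.669 to 0.942 in the 8 C57BI6 libraries and 0.394 to 0.516 in the 6 NGS libraries. The ratio of C1qc to C1qa counts was 0.609 to 0.793 in C57BI6 and 0.156 to 0.463 in NGS. The difference in mean log2 ratio, C57BI6 minus NGS, was 0.83 for C1qb to C1qa and 1.11 for C1qc to C1qa, and 0.89 for the second without NGS ACSS2i library 2, whose ratio of 0.156 was the lowest. C1qc to C1qb overlapped between strains, at 0.754 to 0.947 in C57BI6 and 0.375 to 1.03 in NGS.

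**Figure D4:**
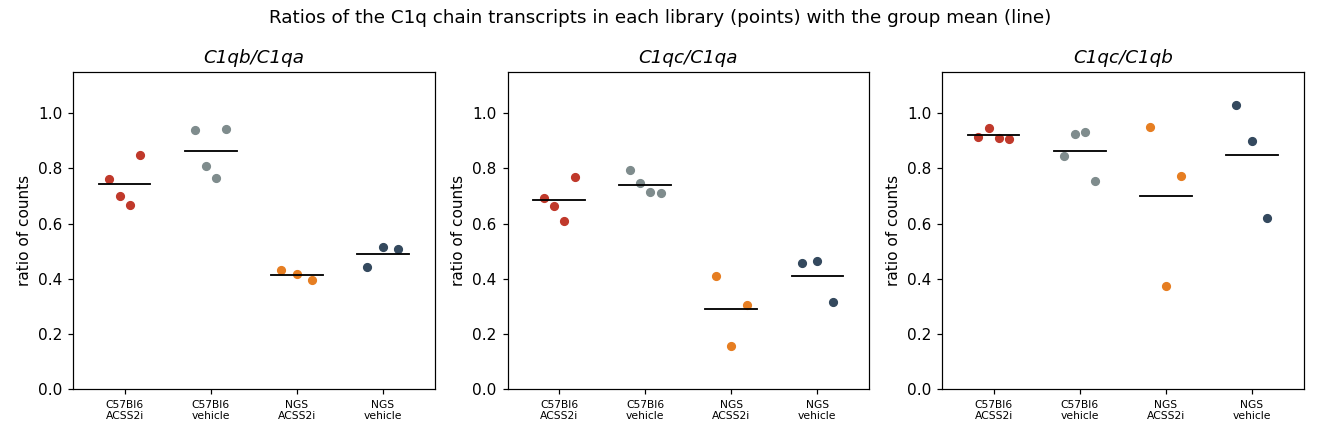
Ratios of the counts of the C1q chain genes in each library (points) with the group mean (line), on axes from 0. The ratios to C1qa are higher in all 8 C57BI6 libraries than in all 6 NGS libraries, and C1qc to C1qb overlaps.

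Among 15 partners of C1q in the complement pathway, 3 were higher and 5 lower in C57BI6 ACSS2i tumours, and 3 were higher and 6 lower in C57BI6 vehicle tumours. The proteases that C1q carries were on the higher side: C1ra averaged 355 ± 28.7 CPM in C57BI6 ACSS2i and 77.0 ± 10.7 in NGS ACSS2i, and C1s1 averaged 110.4 ± 14.8 and 17.6 ± 4.54 CPM (SD, n = 4 and 3). Cd93, a surface glycoprotein of endothelial and myeloid cells once taken for a C1q receptor, was lower, at 139 ± 11.4 CPM in C57BI6 ACSS2i and 399 ± 33.5 in NGS ACSS2i. Under vehicle, C1ra averaged 311 ± 66.4 CPM in C57BI6 and 95.4 ± 36.8 in NGS. C1s1 averaged 89.7 ± 15.3 and 38.3 ± 12.5 CPM, and Cd93 133 ± 10.8 and 269 ± 28.0 CPM, in these vehicle groups. Of these genes, 2 also passed for ACSS2i over vehicle in NGS. C1s1 was lower there, at -1.15 ± 0.24 (edgeR adjusted p = 0.0219), and Cd93 was higher, at 0.53 ± 0.11 (edgeR adjusted p = 0.0205).

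ACSS2i was compared with vehicle within each strain. In C57BI6 tumours none of the 10 genes passed the edgeR test, where 0.439% of all genes passed; 2 had an unadjusted edgeR p under 0.05, and neither DESeq2 nor limma voom called any. In NGS tumours none passed by edgeR, where 3.11% of all genes passed; 3 had an unadjusted edgeR p under 0.05, limma voom called none and DESeq2 called 1, C1qa. The log2 fold change of ACSS2i over vehicle was positive for 8 of the 10 in C57BI6, negative for Spp1 and 0 to 2 decimals for Trem2, with a median of 0.29 against -0.01 over all genes. In NGS it was positive for 7 of the 10, with a median of 0.26 against -0.01. CPM ranges of ACSS2i and vehicle did not overlap for 2 of the 10 in C57BI6 (Arg1 and C1qa) and 4 in NGS (Apoe, Arg1, C1qa and Cd163), against 8.94% and 18.8% of all genes.

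**Figure D5:**
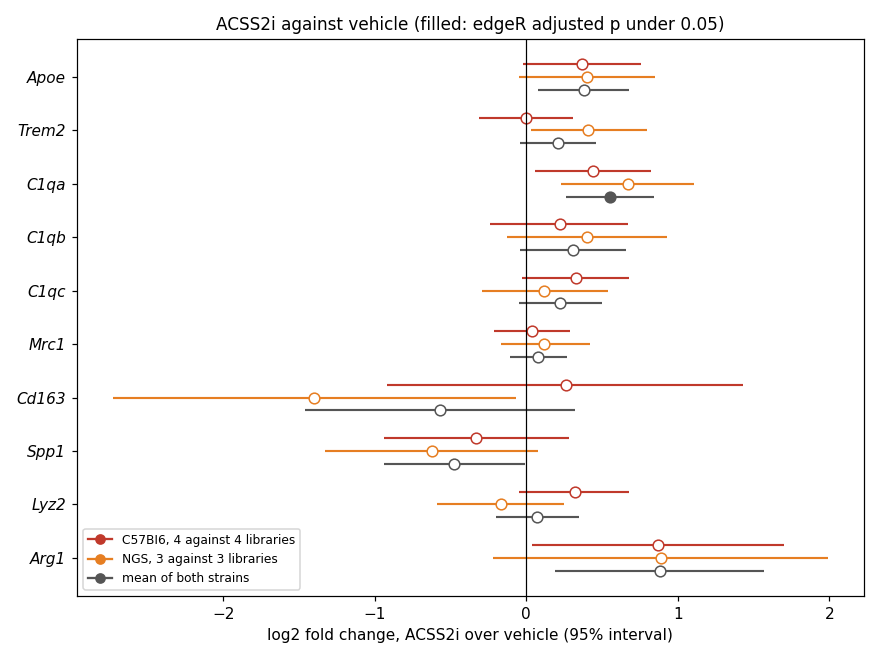
Log2 fold change of ACSS2i over vehicle (horizontal axis) for each gene in C57BI6, in NGS and as the mean of both strains, with 95% intervals; the filled point passed the test. C1qa at 0.55 in the mean of both strains is the filled point.

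C1qa had the smallest p-value of the 10 in each strain. In CPM on library totals, every ACSS2i library lay above every vehicle library in both strains. Means were 604 ± 69.2 CPM in C57BI6 ACSS2i and 426 ± 42.6 in C57BI6 vehicle (SD, n = 4 each). They were 952 ± 194 CPM in NGS ACSS2i and 582 ± 187 in NGS vehicle (SD, n = 3 each). In NGS the lowest ACSS2i library was at 754 CPM and the highest vehicle library at 750.4 CPM. Their TMM factors were 1.073 and 1.044, so on the TMM scale of the edgeR test these libraries change order. The log2 fold change was 0.44 ± 0.18 in C57BI6 (edgeR adjusted p = 0.516) and 0.67 ± 0.21 in NGS (edgeR adjusted p = 0.0854). Averaged over both strains, a comparison added after the data had been seen, C1qa was 0.55 ± 0.14 higher (edgeR adjusted p = 0.0385). In CPM on library totals, 7 of 7 ACSS2i libraries were above all vehicle libraries of their strain, but not on the TMM scale. C1qa was the only member of 10 to pass, where 3.3% of all genes passed. That call was lost without any of 10 of the 14 libraries in turn, with edgeR adjusted p of C1qa up to 0.112. The other chains had intervals that included 0, with C1qb at 0.22 in C57BI6 and 0.4 in NGS, and C1qc at 0.33 and 0.12. Without NGS ACSS2i library 2, where C1qc was lowest, its value in NGS was 0.35.

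Most macrophage identity genes were on the same side as C1qa. Of the 14, 3 rose in NGS (Cybb, Aif1 and Fcgr1), and 13 of 14 had a positive log2 fold change in each strain, with medians of 0.26 in C57BI6 and 0.36 in NGS. Relative to the mean log2 level of the 14 genes in the same library, C1qa was 0.17 higher in C57BI6 ACSS2i tumours (two-sided exact permutation p = 0.0571) and 0.28 higher in NGS ACSS2i tumours (exact permutation p = 0.3). On that scale Spp1 was 0.64 lower and Trem2 0.26 lower in C57BI6 ACSS2i than in C57BI6 vehicle tumours. Each had an exact permutation p of 0.0286, the smallest that 4 against 4 libraries allow, and 0.143 after adjustment over the 10 genes. Neither passed after adjustment, but a member could pass only if most of the 10 were at that smallest p. In NGS the smallest exact permutation p is 0.1, so no member could pass; Spp1 was 1.13 lower and Trem2 0.01 lower.

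Arg1 averaged 165 ± 9.27 CPM in C57BI6 ACSS2i and 86.2 ± 47.3 in C57BI6 vehicle (SD, n = 4 each), and 32.6 ± 5.3 CPM in NGS ACSS2i and 17.0 ± 1.97 in NGS vehicle (SD, n = 3 each). The log2 fold change was 0.87 ± 0.38 in C57BI6 (edgeR adjusted p = 0.602) and 0.89 ± 0.5 in NGS (edgeR adjusted p = 0.331), and the ranges did not overlap in either strain. The Arg1 values turn on C57BI6 vehicle library 2, which also sets the spread that the groups share: without it the log2 fold change was 0.57 in C57BI6 (edgeR adjusted p = 0.277) and 0.91 in NGS (edgeR adjusted p = 0.024), and 0.74 over both strains (edgeR adjusted p = 0.00479, against 0.156 with all libraries).

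Apoe averaged 3416 ± 824 CPM in C57BI6 ACSS2i and 2535 ± 668 in C57BI6 vehicle (SD, n = 4 each), and 996 ± 91.8 CPM in NGS ACSS2i and 733 ± 119 in NGS vehicle (SD, n = 3 each). The groups overlapped in C57BI6 and not in NGS. Its log2 fold change was 0.37 (95% interval -0.02 to 0.76) in C57BI6 and 0.4 (-0.05 to 0.85) in NGS. Over both strains it was 0.38 ± 0.14 for Apoe (edgeR adjusted p = 0.15), and 0.48 without C57BI6 vehicle library 4 (edgeR adjusted p = 0.041).

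Cd163 had opposite signs in the strains, at 0.26 (95% interval -0.92 to 1.43) in C57BI6 and -1.4 (-2.73 to -0.07; edgeR adjusted p = 0.209) in NGS. All 3 NGS ACSS2i libraries were below all 3 NGS vehicle libraries. The difference between these effects, C57BI6 minus NGS, was 1.66 ± 0.81 (edgeR adjusted p = 0.398). Spp1 was at -0.33 (-0.94 to 0.28) in C57BI6 and -0.62 (-1.33 to 0.08) in NGS, and without NGS ACSS2i library 2, where it was lowest, the Spp1 value in NGS was -0.31.

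Mrc1 had the narrowest intervals, at 0.04 (95% interval -0.21 to 0.29) in C57BI6 and 0.12 (-0.17 to 0.42) in NGS. Trem2 was at 0 (-0.31 to 0.31) in C57BI6 and 0.41 (0.03 to 0.8; edgeR adjusted p = 0.201) in NGS, and at 0.22 in NGS without NGS ACSS2i library 2. Lyz2 was at 0.32 (-0.05 to 0.68) in C57BI6 and -0.17 (-0.59 to 0.25) in NGS. No difference of the ACSS2i effects between strains passed for any of the 10 by edgeR, DESeq2 or limma voom, and none had an unadjusted edgeR p under 0.05; 0.0173% of all genes passed that test by edgeR. The 95% interval of that difference was widest for Cd163, at -0.12 to 3.43, and narrowest for Mrc1, at -0.47 to 0.3.

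Markers of other cells were also compared between treatments. Of 10 measured monocyte markers, 2 rose in C57BI6 ACSS2i tumours and 2 in NGS ACSS2i tumours. Log2 fold changes were positive for 8 of the 10 in C57BI6 and 5 in NGS, with medians of 0.91 and -0.03. Monocyte marker sums overlapped, at 890.2 to 923 CPM in C57BI6 ACSS2i and 807 to 969 in C57BI6 vehicle. In NGS they were 671 to 871 CPM in ACSS2i and 652 to 913 in vehicle tumours. Ly6c2, the antigen of classical monocytes, averaged 44.3 ± 11.2 CPM in C57BI6 ACSS2i and 4.7 ± 1.1 in C57BI6 vehicle (SD, n = 4 each), and 39.9 ± 22.8 CPM in NGS ACSS2i and 4.14 ± 2.14 in NGS vehicle (SD, n = 3 each). Lymphocyte markers summed to 27.7 to 48.8 CPM in C57BI6 ACSS2i and 6.62 to 12.7 in C57BI6 vehicle, and to 1.43 to 1.98 CPM in NGS ACSS2i and 1.28 to 2.85 in NGS vehicle. Of the 9 measured, none passed in either strain, and 9 had a positive log2 fold change in C57BI6 and 2 in NGS. Of 15 measured genes of alternative activation, 2 rose in NGS, the chitinase-like gene Chil3 and the transglutaminase gene Tgm2. None passed in C57BI6, where 13 had a positive log2 fold change with a median of 0.82, against 9 and 0.07 in NGS. In C57BI6 the value of Chil3 was 1.61 ± 0.43 (edgeR adjusted p = 0.135). Chil3 is also 1 of the 2 monocyte markers that rose in NGS. Of 16 inflammatory activation genes, 1 rose in each strain, Cxcl10, and the others did not pass. Its log2 fold change was 0.86 ± 0.17 in C57BI6 (edgeR adjusted p = 0.0393) and 1.67 ± 0.24 in NGS (edgeR adjusted p = 0.00335). The inflammatory list had a median of -0.1 in C57BI6 and 0.42 in NGS. Skeletal muscle markers had a median log2 fold change of ACSS2i over vehicle of 1.59 in C57BI6 and -3.78 in NGS, but none of the 10 passed in either strain. Their sums spread widely and overlapped, at 5.12 to 2995 CPM in C57BI6 ACSS2i and 3.29 to 1012 in C57BI6 vehicle. In NGS they were 15.5 to 732 CPM in ACSS2i and 333 to 7024 in vehicle tumours. Of the 10 fibroblast markers, 3 fell in NGS ACSS2i tumours, with sums of 7296 to 7942 CPM in NGS ACSS2i and 8915 to 9847 in NGS vehicle; the sums overlapped in C57BI6, at 6242 to 7648 CPM in ACSS2i and 5815 to 7128 in vehicle tumours. Their part in the members' values was not tested.

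Within groups, the 10 genes did not vary as 1 unit. For each member the deviations of log2 CPM from the group means were correlated over the 14 libraries, as a description, with those of about 8970 genes; values are Pearson's r, chosen as the highest. C1qb was closest to Csf1r, the receptor for the macrophage growth factor (r = 0.94, Spearman's rho 0.89), and to C1qa (r = 0.93, rho 0.86), while C1qc was closest to Tifa (r = 0.97, rho 0.94) and had an r with C1qa of 0.73 over the 8 C57BI6 libraries and 0.1 over the 6 NGS libraries. In NGS ACSS2i library 2, C1qa was the highest of its group (1143 CPM) and C1qc the lowest (178 CPM). The NGS r without that library was not computed. Spp1 was closest to Gpm6b (r = 0.99, rho 0.99), Gab1 (r = 0.94, rho 0.92) and Cst3 (r = 0.94, rho 0.97). Cd163 was closest to Lyve1, a marker of perivascular macrophages and lymphatic vessels (r = 0.82, rho 0.76), and to Meg3 (r = 0.82, rho 0.79). The closest gene was Pstpip1 for Trem2 (r = 0.94, rho 0.87) and Arap3 for C1qa (r = 0.94, rho 0.9). It was Fbxw17 for Apoe (r = 0.9, rho 0.84) and Zfp113 for Lyz2 (r = 0.91, rho 0.92). For Mrc1 it was Madd (r = 0.89, rho 0.77) and for Arg1 Cxcl14 (r = 0.9, rho 0.36). Apoe and Lyz2 had an r of 0.93 over the 8 C57BI6 libraries and -0.14 over the 6 NGS libraries. Libraries share their group means and depth, and the highest of many correlations is high by selection.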

How the data were processed

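RNA of 14 bulk tumours was measured as raw counts per gene. The table of 51789 Ensembl IDs was used with its counts as deposited. Build mm10 and the tools RSEM 1.2.3 and DESeq2 are named, without their roles, in the submitters' processing notes; aligner and annotation are not given in the sources used here. Symbols and coordinates came from GENCODE M21 (51596 genes matched, 193 without a symbol).

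Genes kept by filterByExpr (17294) were scaled by TMM and tested in edgeR 4.0.16 (quasi-likelihood, robust) in 1 model of all 4 groups, with Benjamini-Hochberg adjustment over all genes and a threshold of 0.05, after a check on simulated data. CPM use library totals, so ratios of CPM means can differ from fitted fold changes. DESeq2 1.42.0, limma voom 3.58.1 and other settings were alternatives. Single values used exact permutation tests (scipy 1.17.1) of log2(CPM + 0.5). Intervals cover the spread between libraries; counts carry no stated molecular identifiers. Replicate numbers did not pair the libraries. All members, Lyz1, the 3 genes of each of 21 context lists with the smallest p and the 3 genes most like each member could be named. The members and lists were chosen with earlier results of these data known. Promoter sequences are from RefSeq (GRCm38.p6); 8 members matched by symbol, and C1qa and Arg1 did not. The count of macrophage identity genes called for ACSS2i in C57BI6 tumours is not reported here.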

Additional observations from a re-analysis of the deposited data

How the results depend on the processing

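Between strains, Apoe, Spp1, Mrc1, Lyz2 and Trem2 kept their direction and their side of the threshold under all alternatives run, in each treatment; the other calls that were lost are given with their genes in the report. Over all values of single genes and ratios under an alternative, 1532 kept both, 49 lost the call, 12 gained it and 51 changed sign. All genes called for ACSS2i in C57BI6 (76) came to 127 with library totals, 330 with DESeq2, 463 with limma voom, 325 from C57BI6 libraries alone, 36 with counts thinned to the smallest library and 23 to 135 without each library; in NGS (537) to 1539, 95 and 20 with DESeq2, limma voom and NGS libraries alone, and 192 to 1768 without each library; for the difference of effects (3) to 272 with DESeq2, 0 with limma voom, 6 with no filter and 0 to 145 without each library. C57BI6 against NGS in vehicle (5589) came to 3626 with thinned counts. The mean over strains (570) came to 1343 with DESeq2 and 290 to 1492 without each library. Members called were 1 in C57BI6 from its libraries alone and 1 in NGS with DESeq2 (C1qa in each), 0 to 1 in NGS without each library, and over both strains 2 with DESeq2, 0 with no filter and 0 to 2 without each library. A fit without the robust spread, chosen after seeing the data, moved no count of calls by over 1.5 times. Library totals moved the median of all genes to -0.14 for C57BI6 against NGS in vehicle.

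Same-numbered libraries did not vary together (correlations of -0.137 to 0.155 in C57BI6 and -0.002 to 0.095 in NGS). With the replicate block, 35 genes were called in C57BI6 and 7 for the difference of effects; members called were 1 in NGS (C1qa) and 2 over both strains, Arg1's difference of effects was 0.2, and the calls of C1qc in vehicle (adjusted p = 0.0787 by edgeR) and Cd163 in ACSS2i tumours (0.0686) were lost.

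Values near 0 that had not passed changed sign. The difference of effects was 0.01 (library totals) and 0.3 (limma voom) for Arg1 and 0.07 (limma voom) for Apoe. Without each library it ran from -0.19 to 0.16 for Apoe, -0.34 to 0.31 for Arg1, -0.46 to 0.01 for C1qa, -0.44 to 0.09 for C1qb, -0.01 to 0.38 for C1qc, -0.2 to 0.08 for Mrc1 and 0 to 0.66 for Spp1. The ACSS2i effect without each library ran from -0.05 to 0.35 for C1qc and -0.04 to 0.25 for Mrc1 in NGS, from -0.08 to 0.61 for Cd163 and -0.04 to 0.06 for Trem2 in C57BI6, and from 0 to 0.16 for Lyz2 over both strains. Relative to the identity genes it ran from -0.02 to 0.21 for Apoe, -0.33 to 0.3 for Cd163 and -0.02 to 0.12 for Lyz2 in C57BI6, and from -0.21 to 0.14 for Apoe, -0.15 to 0.22 for C1qb and -0.17 to 0.15 for Trem2 in NGS. With Adgre1 alone as the reference gene it was 0.01 for C1qb in C57BI6 and 0.08 for Apoe and Trem2 in NGS. The 2 members with an unadjusted p under 0.05 relative to the identity genes in C57BI6 became 0 with Adgre1 alone, and 0 without each library, where 4 against 3 libraries cannot reach it. The log2 ratio of C1qc to C1qb in NGS ran from -0.63 to 0.04. The cause of these shifts was not tested. NGS libraries were shallower, so small differences in low genes are less certain there. Cd163 was low in both strains, at 18 to 112 counts in C57BI6 and 20 to 183 in NGS. Its coefficient of variation was 61.6% in C57BI6 ACSS2i and 62.8% in C57BI6 vehicle. In NGS it was 39.9% in ACSS2i and 29.7% in vehicle tumours.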
